A study of Mus musculus with 2 samples.

Results

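The 41 genes described here are the Wnt ligands, their Frizzled receptors, the secreted Sfrp, Dkk and Wif1 inhibitors, the co-receptors Lrp5 and Lrp6, and the feedback gene Axin2. They were taken from a gene table by symbol alone, and they make up 41 of its 23227 symbols: 19 Wnt, 10 Fzd, 4 Sfrp and 4 Dkk genes beside Wif1, Lrp5, Lrp6 and Axin2. Wnt proteins are lipid-bearing secreted ligands that bind Frizzled receptors. With Lrp5 or Lrp6 as co-receptor they stabilise beta-catenin, which activates genes such as Axin2 together with TCF/LEF factors, whereas Wnt5a is best known for signalling through Frizzled, Ror2 and Ryk without beta-catenin, in cell polarity and movement. In mesenchymal stem cells, Wnt10b is known for favouring bone over fat formation, and the Sfrp, Dkk and Wif1 proteins are known as antagonists that bind ligands or co-receptors outside the cell.

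PolyA RNA was sequenced in paired reads from subconfluent cultures of 2 immortalised mouse lines of adult mesenchymal stem cells, which the labels also call fibroblasts. The wild-type line (WT) carries floxed Dicer alleles, Dicer f/f, and the knockout line (KO) is Dicer -/-. Dicer is the nuclease that cuts microRNA precursors into mature microRNAs. Each line is monoclonal, so each genotype is represented by a single clone, and the effects of clone and genotype cannot be told apart. The labels do not say how the alleles were deleted or how the lines were immortalised, and list 1 sample per genotype. Which deposited mean is WT and which is KO was read from the order of the names in the comparison's title, and every direction below rests on that reading.

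Each deposited mean proved to be a mean over 2 libraries, whose whole read numbers could be recovered for 100% of the genes above 0. They are called here the deeper and the shallower library of a genotype, and held 14135422 to 15718369 reads in genes. Wherever a pair of library values is given, the deeper library comes first. Nothing in the labels tells whether they were separate cultures, so the spread between them may be technical. Dicer1 itself was counted over the whole gene, which cannot resolve a deleted part, and so its level does not check the labels: it was 804 and 943 normalised reads in WT and 573 and 557 in KO. Of 14 mesenchymal and fibroblast markers, 13 passed the read minimum used for testing, and Thy1 had 0 reads in every library. By the rule given below, 1 of the 13 was higher in KO (Vcam1) and 2 were lower (Col1a1 and Col1a2), beside 8.92% and 8.56% of all tested genes. The markers summed to 182893 and 219550 normalised reads in WT and to 112557 and 136035 in KO. Of the markers of other cells, 1 of 7 for blood, 0 of 5 for endothelium and 1 of 6 for epithelium passed. Each of these lists summed to at most 71.8 normalised reads per library, with Cd3e, Epcam and Cldn4 among those at 0. In these bulk samples, fewer cells expressing a gene and less RNA per cell cannot be told apart.

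Of the 41 genes, 9 had 0 reads in all 4 libraries, where 3 reads would correspond to 2.76 to 3.36 normalised reads. They were Wnt3, Wnt3a, Wnt8a, Wnt8b, Wnt9b, Wnt10a, Wnt16, Fzd10 and Dkk4. A further 12 had a mean between 0.460 and 19.0 normalised reads, and 20 reached the minimum of 20 normalised reads over both genotypes that was required for testing. Those 20 were 5 of the 19 Wnt genes, 8 of the 10 Frizzled genes, 3 of the 4 Sfrp genes, Dkk3, Wif1, Lrp5 and Lrp6, with means up to 19199. Close to the minimum, Wnt2b was just inside with a mean of 20.5 and Fzd9 just outside with 19.0. In all, 11710 genes passed it.

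A gene was called different when its KO mean was at least 2 times or at most 0.5 times its WT mean and a 95% exact (Clopper-Pearson) counting interval of the ratio excluded 1. These intervals cover counting error only. By this rule Fzd6, Lrp6, Sfrp4 and Wnt5b were higher in KO, 4 of 20 against a background of 8.92% of all tested genes. Wnt5a, Fzd3, Sfrp2, Wif1 and Fzd1 were lower, 5 of 20 against 8.56%, and the other 11 were neither. The median log2 ratio of KO over WT was -0.06 over the 20 genes and -0.0054 over all tested genes. Over the 20 genes it depended on single libraries: it ran from -0.40 (deeper KO library left out) over -0.37 (shallower WT) and 0.16 (shallower KO) to 0.49 (deeper WT), while over all tested genes it stayed between -0.02 and 0.03. The adjusted p in the authors' deposited table, read at a threshold of 0.1, called Fzd6 higher (1 of 20, background 5.56%) and Fzd3 and Wnt5a lower (2 of 20, background 5.34%). With limma on the 4 recovered libraries, at an adjusted p of 0.05, Fzd6 was higher (1 of 20, background 4.61%) and Fzd3, Sfrp2 and Wnt5a were lower (3 of 20, background 4.14%). For 6 of the 20 genes the lower KO value still exceeded the higher WT value (background 30.4%), and for 5 the reverse held (background 28.8%). Exons of Wnt5a, Fzd5, Fzd6 and Sfrp2 overlap annotated genes on the opposite strand, and the strand setting of the counting is not stated, so reads of such pairs cannot be told apart.

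**Figure D1:**
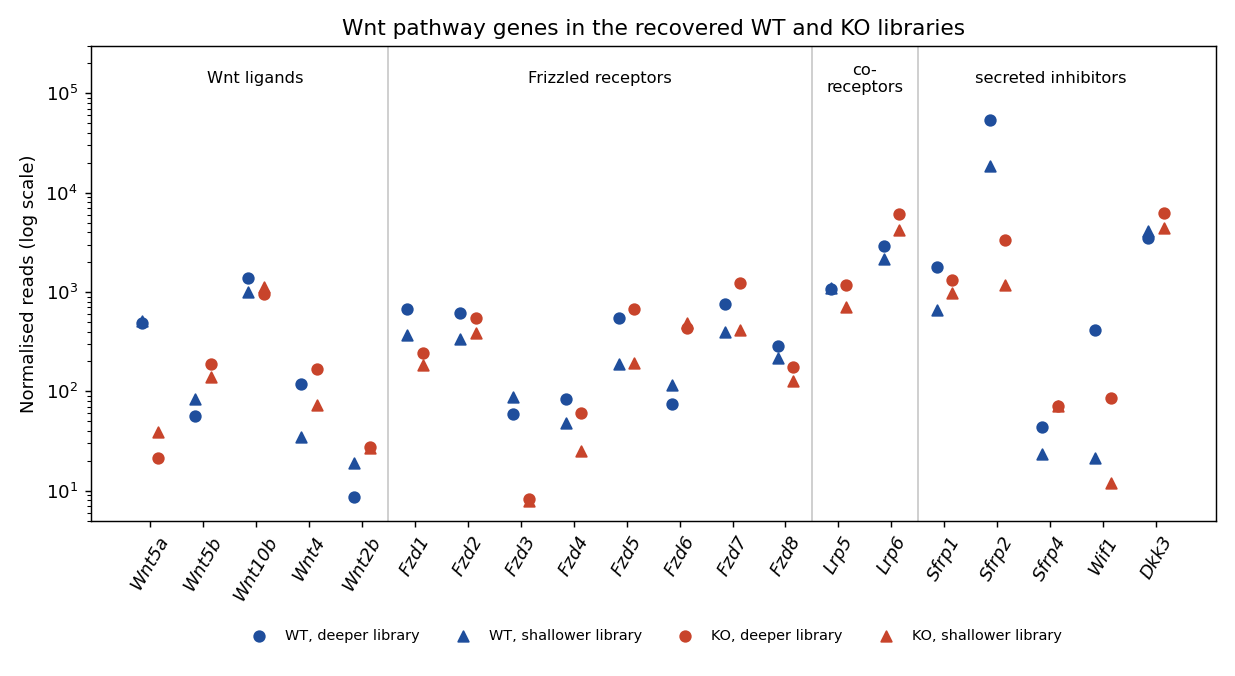
Normalised reads (log scale) of the 20 tested genes in each of the 4 recovered libraries. Blue marks are WT and red marks KO, circles are the deeper and triangles the shallower library of a genotype. Wnt5a and Fzd3 are lower in both KO libraries and Fzd6 is higher, while Wif1 differs more between the libraries of one genotype than between genotypes.

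The libraries of a genotype differed from each other at these genes more often than over all tested genes. The deeper library had the higher value in both genotypes for 12 of the 20 genes (60%) and for 38.4% of all tested genes. The libraries of WT were at least 2 times apart for 6 of the 20 genes (30%), compared with 9.05% of all tested genes. For KO the figures were again 6 of 20 (30%), compared with 8.80%. The values of each library are therefore given beside every ratio. Libraries were also paired by the rank of their depth, a pairing read from the data and not from the labels. With that pairing as a block, limma called 3 of the 20 genes higher (Fzd6, Lrp6 and Wnt5b, background 18.5%) and 6 lower (Fzd1, Fzd3, Fzd8, Sfrp2, Wif1 and Wnt5a, background 17.7%).

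Among the ligands, Wnt5a fell most. It had 483 and 517 normalised reads in the WT libraries and 21.2 and 38.8 in the KO libraries, means of 500 (499.9) and 29.98. Both KO libraries were far below both WT libraries. The mean was 16.7-fold lower in KO, a ratio of 0.0600 with a counting interval of 0.0456 to 0.0776. In the authors' deposited table its adjusted p was 1.13e-15, and limma gave 0.0137. The ratio was 0.0438 between the deeper libraries and 0.0751 between the shallower ones.

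Wnt5b, the close paralog of Wnt5a, moved the other way. It had 56.9 and 83.0 normalised reads in WT and 189 and 139 in KO, with no overlap between genotypes. The mean rose from 69.9 to 164, a ratio of 2.34 (counting interval 1.91 to 2.89). By limma the adjusted p was 0.0963, and the authors' deposited table gave 0.105, so neither test passed, and the p with the depth block was 0.0322. The ratio was 1.98 without the deeper WT library and 1.99 without the deeper KO library, just short of 2.

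Wnt10b, the ligand with the highest level in these lines, had 1384 and 1000 normalised reads in WT and 963 and 1130 in KO. The genotypes overlapped, with a ratio of 0.878 (counting interval 0.828 to 0.931) and an adjusted p of 0.66 by limma. Wnt4, a ligand best known from kidney and gonad development, had 118 and 34.8 normalised reads in WT and 169 and 73.6 in KO. The ratio of its means was 1.59, below the 2-fold limit, and the deeper library was the higher one in both genotypes. The ratio was 3.49 when the deeper WT library was left out, 2.22 when the shallower KO library was, and 0.967 when the deeper KO library was. Wnt2b had 8.68 and 19.1 normalised reads in WT and 27.6 and 26.9 in KO. These values did not overlap, but the ratio of 1.96 (counting interval 1.21 to 3.25) missed the limit, and the limma adjusted p was 0.297. With the shallower WT library left out the ratio was 3.14, but Wnt2b was then under the read minimum and was not called. Between the deeper libraries the ratio was 3.18, and between the shallower ones it was 1.41.

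Levels of different genes were compared as normalised reads per kilobase of annotated exon. On that scale the 19 Wnt genes summed to 472 in WT and 422 in KO. Wnt10b made up 74.2% of the sum in WT and 72.9% in KO, and was first in every library. Wnt5a was second in WT with 13.52%, and held 0.907% in KO. Wnt5b held 5.58% in WT and 14.6% in KO, where it was second in both libraries. Wnt4 held 3.84% in WT and 6.86% in KO, but its library shares overlapped, with 5.27% and 2.00% in WT and 9.69% and 4.10% in KO.

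The Frizzled receptors bind Wnt ligands through a cysteine-rich domain at the cell surface. Fzd6, a receptor known for roles in planar cell polarity, rose more than any other of the 20 genes. It had 74.2 and 115 normalised reads in WT and 437 and 492 in KO. No KO library came near the WT values, and the mean rose from 94.8 to 464, a ratio of 4.89 (counting interval 4.17 to 5.77). In the authors' deposited table its adjusted p was 3.15e-06, and limma gave 0.0208. The ratio was 5.89 between the deeper libraries and 4.26 between the shallower ones.

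Fzd3, which acts with Fzd6 in planar polarity and in axon guidance, fell. It had 59.8 and 87.4 normalised reads in WT and 8.28 and 7.96 in KO, from 140 reads in WT and 17 in KO. Both KO libraries were lower than either WT library, and the mean was 9.07-fold lower, a ratio of 0.110 (counting interval 0.0625 to 0.183). By limma the adjusted p was 0.0271, and the authors' deposited table gave 5.66e-04. Fzd3 and Fzd6 therefore differed between the lines in opposite directions.

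Fzd1, a receptor for beta-catenin signalling, had 682 and 369 normalised reads in WT and 244 and 183 in KO. The genotypes did not overlap, and the mean was 2.46-fold lower (ratio 0.406, counting interval 0.363 to 0.454). The authors' deposited table gave an adjusted p of 0.302, limma 0.108, and limma with the depth block 0.00757. Without the deeper WT library the ratio was 0.579 and the call was lost. Fzd8 had 286 and 217 normalised reads in WT and 176 and 128 in KO. These did not overlap either, but the ratio was 0.604 (counting interval 0.523 to 0.696), within the limit, and the adjusted p of limma was 0.182 without and 0.0309 with the depth block.

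The remaining tested receptors, Fzd2, Fzd4, Fzd5 and Fzd7, overlapped between genotypes. Fzd2 was nearly equal, with 622 and 340 normalised reads in WT and 548 and 389 in KO, a ratio of 0.975. Fzd7 had 762 and 398 in WT and 1233 and 418 in KO, a ratio of 1.42 (counting interval 1.32 to 1.53) that ran from 0.720 (deeper KO library left out) over 2.07 (deeper WT) to 2.12 (shallower KO). In both genotypes its deeper library was the higher one. Fzd5 had 549 and 187 in WT and 682 and 191 in KO, a ratio of 1.18 that ran from 0.519 (deeper KO library left out) over 0.794 (shallower WT) to 2.33 (deeper WT). The direction for Fzd5 and Fzd7 therefore rested on single libraries. Fzd4, also the receptor for the non-Wnt ligand norrin, had 83.9 and 48.2 in WT and 60.7 and 24.9 in KO, a ratio of 0.648. It ran from 0.377 (deeper KO library left out) over 0.888 (deeper WT) to 0.919 (shallower KO).

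Summed over the family, the Frizzled genes reached 671 and 378 normalised reads per kilobase in the WT libraries and 719 and 401 in the KO libraries. The means of 525 (524.6) and 560 (559.9) differed less than the libraries of one genotype. The make-up differed more. Fzd1 held 23.9% of the sum in WT and 9.08% in KO, and Fzd6 held 3.75% in WT and 17.2% in KO. The share of Fzd6 was 2.30% and 6.34% in the WT libraries and 12.6% and 25.4% in the KO libraries, without overlap. Fzd2 held 25.0% and 22.8% of the 2 sums, and Fzd7 held 24.4% in WT and 32.5% in KO. The share of Fzd7 was 25.1% and 23.2% in the WT libraries and 37.8% and 23.0% in the KO libraries. Its higher KO share therefore rested on the deeper KO library. The places of Fzd7, Fzd2 and Fzd1 in WT differed by less than the spread between libraries, while Fzd3 was the lowest detected receptor in every library.

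**Figure D2:**
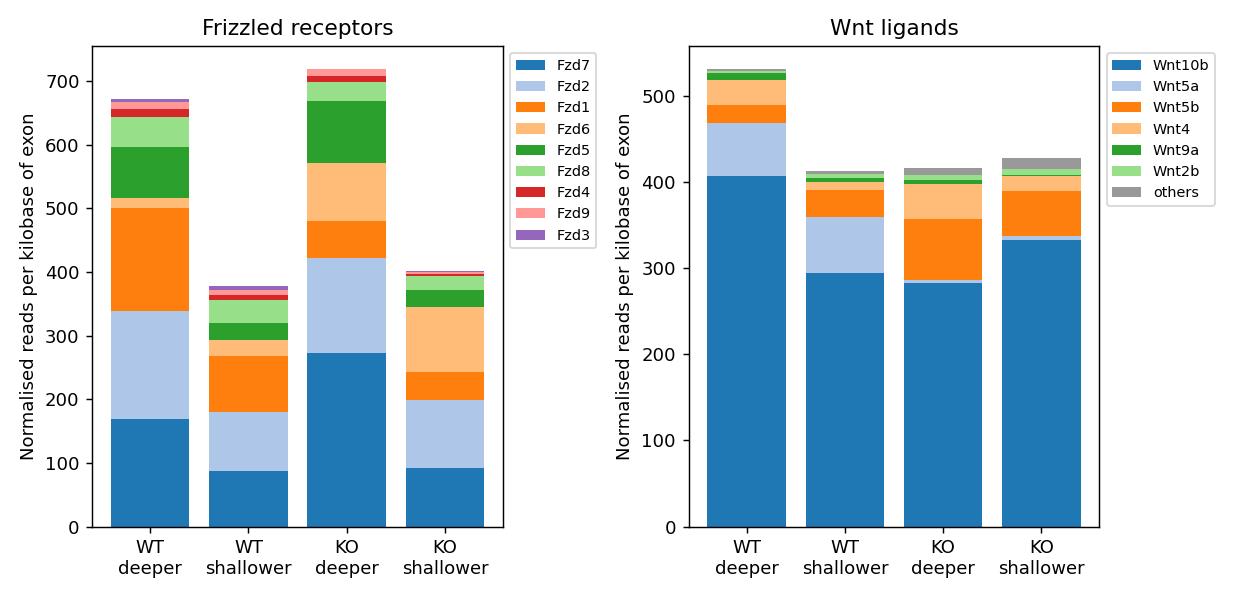
Stacked levels of the Frizzled receptors (left) and the Wnt ligands (right) in each recovered library, as normalised reads per kilobase of exon. The Frizzled sum is close to equal between genotypes while Fzd1 shrinks from 23.9% to 9.08% and Fzd6 grows from 3.75% to 17.2% of it, and Wnt10b makes up most of the ligand sum throughout.

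Of the co-receptors, Lrp6 was higher in KO and Lrp5 was not called. Lrp6 had 2889 and 2165 normalised reads in WT and 6138 and 4213 in KO, without overlap. The ratio was 2.05 (counting interval 1.98 to 2.12), with an adjusted p of 0.107 in the authors' deposited table, 0.0854 by limma and 0.00365 by limma with the depth block. It was 1.79 without the shallower WT library and 1.67 without the deeper KO library, where the call was lost. Lrp5 had 1073 and 1089 normalised reads in WT and 1172 and 710 (710.5) in KO, which overlapped, with a ratio of 0.871. Per kilobase of exon, Lrp6 stood at 185 in WT and 379 in KO, and Lrp5 at 111 and 96.7.

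The most abundant of the 41 genes in WT was Sfrp2, a secreted Frizzled-related protein that binds Wnt ligands. In KO, Dkk3 and Lrp6 had more normalised reads. Per kilobase of exon, however, only Dkk3 (1595) was above Sfrp2 (1052) in KO, and Lrp6 stood at 379. Sfrp2 had 53502 and 18765 normalised reads in WT and 3349 and 1180 in KO. Although the libraries of each genotype were far apart, both KO libraries were below both WT libraries. The mean was 16.0-fold lower, a ratio of 0.0627 with a counting interval of 0.0609 to 0.0645. The authors' deposited table gave an adjusted p of 0.112, just short of the threshold, limma 0.0401, and limma with the depth block 3.64e-04. The ratio was 0.0626 between the deeper and 0.0629 between the shallower libraries. It was 0.121 without the deeper WT library and 0.0331 without the deeper KO library, and the gene was called lower in each case.

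Sfrp1, the related inhibitor with the next highest level, had 1789 and 664 normalised reads in WT and 1336 and 979 in KO. These overlapped, with a ratio of 0.944 that ran from 0.647 (shallower WT library left out) to 1.74 (deeper WT). Sfrp4 was low, with 43.4 and 23.5 normalised reads in WT and 70.8 and 70.7 in KO. Its mean rose 2.11-fold (counting interval 1.57 to 2.87), with an adjusted p of 0.475 in the authors' deposited table and 0.171 by limma. Without the shallower WT library the ratio was 1.63 and the call was lost, and without the deeper WT library it was 3.005. As a family the Sfrp genes summed to 17072 normalised reads per kilobase in WT and 1334 in KO. Sfrp2 was 98.3% of that sum in WT and 78.9% in KO, and Sfrp1 was 1.64% and 19.9%.

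Wif1, a secreted inhibitor that binds Wnt ligands directly, gave the least stable value. It had 415 and 21.3 normalised reads in WT and 86.5 and 11.9 in KO, so that the WT libraries were further apart than the genotypes. By its means it was 4.44-fold lower in KO (ratio 0.225, counting interval 0.181 to 0.279). The authors' deposited table gave an adjusted p of 0.963, limma 0.597, and limma with the depth block 0.0440. Without the deeper WT library the direction turned, to a ratio of 2.31. Leaving out the shallower WT library gave 0.118, leaving out the deeper KO library 0.0547 and leaving out the shallower KO library 0.396, and the gene was called lower in those cases.

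Dkk3, an unusual Dkk family member not known to share the Lrp5/6 binding of the others, was the only Dkk gene tested. It had 3499 and 4144 normalised reads in WT and 6293 and 4420 in KO, which did not overlap, but the ratio of 1.402 (counting interval 1.36 to 1.44) was within the limit. It made up over 99.9% of the Dkk reads per kilobase in each genotype, and the classic Lrp5/6 inhibitors Dkk1 and Dkk2 had at most 5 and 2 reads per genotype.

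**Figure D3:**
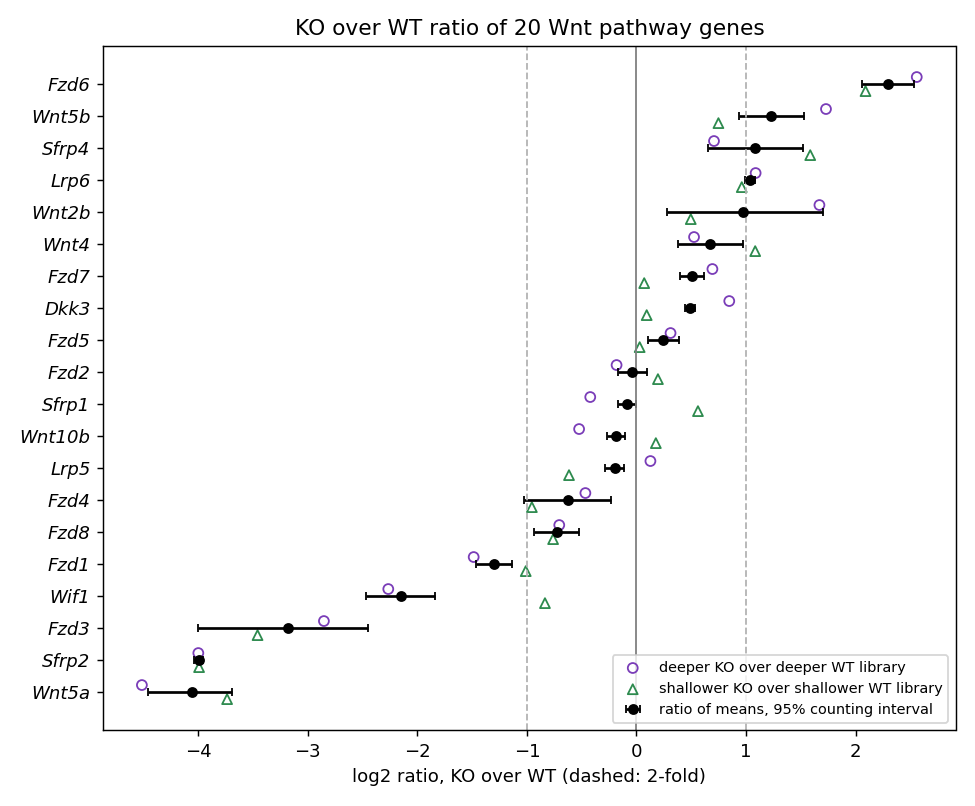
Log2 ratio of KO over WT for the 20 tested genes, in order of the ratio. Black points are ratios of means with 95% counting intervals, open circles compare the deeper and open triangles the shallower libraries, and dashed lines mark a 2-fold difference. For Wnt5a, Sfrp2, Fzd3, Fzd1 and Fzd6 all 3 marks lie beyond 2-fold on the same side, while for Wif1 the shallower pair does not.

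Axin2, a direct and widely used readout of beta-catenin signalling, was too low to be tested. It had 19.3 and 10.1 normalised reads in WT and 0.920 and 0.995 in KO, from 29 reads in WT and 2 in KO. Both KO libraries were lower. The ratio was 0.0652 with a counting interval of 0.00754 to 0.258, and its adjusted p in the authors' deposited table was 0.184. Wnt9a had 28.0 and 17.9 normalised reads in WT and 16.6 and 3.98 in KO, also without overlap. Among the other 10 genes under the minimum, Dkk1, Wnt1 and Wnt6 were higher in both KO libraries with at most 10 reads per genotype, and Dkk2, Fzd9, Sfrp5, Wnt2, Wnt7a, Wnt7b and Wnt11 overlapped. Wnt7b had 0 and 4.48 normalised reads in WT and 1.84 and 30.8 in KO, so that its KO mean came almost wholly from the shallower library.

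Since the lines differ in the enzyme that makes microRNAs, the 3' UTRs of the genes were searched for sites of 10 widely studied microRNA families. MicroRNAs were not measured in these polyA libraries, and a match is a description, not a site shown to act. The mature sequences below are from RefSeq (GRCm38.p6), with the seed (bases 2 to 8) in capitals, and are those whose sites are printed next.
mmu-let-7a-5p: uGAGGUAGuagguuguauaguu
mmu-miR-16-5p: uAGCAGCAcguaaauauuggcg
mmu-miR-17-5p: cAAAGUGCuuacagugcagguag
mmu-miR-27a-3p: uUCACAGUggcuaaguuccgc
mmu-miR-29a-3p: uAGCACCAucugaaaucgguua
mmu-miR-30a-5p: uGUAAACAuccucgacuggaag
mmu-miR-34a-5p: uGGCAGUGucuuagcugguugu

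A site was a stretch of 7 bases complementary to a seed, in the longest 3' UTR of GENCODE M21 on GRCm38. That UTR was the longest stretch after a stop codon in any annotated transcript of the gene, whatever its type. It was found for all 41 genes and for 11333 of the 11710 tested genes (96.8%). Fzd1, which was lower in KO, held 1 site for miR-16 that is not printed. The sites below stand in the 5 other called genes that hold any, with 11 bases on each side and the site in capitals. They show both directions: the 3 sites of Fzd6 and examples from Lrp6 and Sfrp4, which were higher in KO, beside the 2 sites of Wnt5a and 1 of the 18 of Fzd3, which were lower. The Fzd6 sites for miR-34, miR-27 and miR-29 lie (GRCm38) at chr15:39036966-39036972, chr15:39037339-39037345 and chr15:39037679-39037685 on the plus strand, and the Wnt5a sites for miR-34 and miR-30 at chr14:28526672-28526678 and chr14:28527196-28527202 on the plus strand. The Sfrp4 site for miR-17 lies at chr13:19631537-19631543 on the plus strand. The Fzd3 site for let-7 lies at chr14:65200873-65200879, and the Lrp6 sites for miR-16 and miR-29 at chr6:134450585-134450591 and chr6:134446695-134446701, all on the minus strand.
Fzd6, miR-34: ggtgtggtcacCACTGCCcagccttttgt
Fzd6, miR-27: gctactttgcgACTGTGAtagctgttaca
Fzd6, miR-29: aactcactgtgTGGTGCTccttggctgtc
Lrp6, miR-16: aacagcagtttTGCTGCTtgtgccataaa
Lrp6, miR-29: ctttggaatgaTGGTGCTttgcaaggatg
Sfrp4, miR-17: cagtgttctggGCACTTTagtgggtcaca
Wnt5a, miR-34: cccaggacgacCACTGCCtgcccacactg
Wnt5a, miR-30: acatggattaaTGTTTACacttacagctg
Fzd3, let-7: atctcctctacCTACCTCacaaagttgtc

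Of the 4 genes higher in KO, 3 held a site of at least 1 of the 10 families: Fzd6 held 3, Sfrp4 held 4 and Lrp6 held 6, while the 867 bases of Wnt5b held 0. Of the 5 lower genes, Fzd3 held 18, Wnt5a held 2 and Fzd1 held 1, while the 894 bases of Sfrp2 and the 771 bases of Wif1 held 0. All 11 genes that were neither held a site, counting Lrp5, whose searched sequence is qualified below. Over all tested genes, such a site was present in 76.5% of those higher in KO, 68.3% of those lower and 69.2% of the rest. The median length of the 3' UTR was 2450 bases over the 20 genes and 1394 over all tested genes, and the 10270 bases of Fzd3 were the longest of the 41. Of the 6 miR-16 matches in Fzd3, 5 overlap each other in 1 repeat.

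By family, sites for miR-16 were present in 8 of the 20 genes (27.9% of all tested genes), for miR-29 in 7 (17.5%), and for miR-30 and miR-34 in 6 each (17.2% and 19.4%). Sites for miR-27 were present in 5 genes (19.3%), all of them Frizzled or Sfrp genes: Fzd3, Fzd4, Fzd6, Fzd7 and Sfrp1. Sites for let-7 were present in Dkk3, Fzd3 and Fzd4 only, 3 of 20 (12.0%), and those for miR-17 and miR-31 in 3 genes each (15.6% and 14.1%). Sites for miR-199a-3p were present in Wnt10b and Wnt2b (9.73%), and those for miR-21a in Fzd3 alone (8.47%). Lrp5 held 5 sites for miR-29, the most of any of the 20 genes, and was not called different. However, the 7934 bases taken as its 3' UTR come close to its longest transcript of 8893 bases. Its sites for miR-16 and miR-29 run from chr19:3630458 down to chr19:3593665, a span much longer than the sequence searched. They may therefore lie in exons that are coding in other transcripts, and the counts for both families include Lrp5.

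The TCF/LEF motif CTTTGAT, searched on both strands as CTTTGAT or ATCAAAG, was present in 3.73% of 32851 RefSeq promoters (GRCm38.p6, 250 bases before to 50 after the start). Among 30 promoters of 27 of the 41 genes it was present in 2, those of Wnt5b and Wnt11. In Wnt5b it lay 71 bases before 1 of 3 annotated starts, in the window chr6:119449337-119449636 on the minus strand. That window is printed here, with the motif in capitals, because it holds the match in a called gene. Of the 9 called genes, only Wnt5b, Sfrp2, Fzd1 and Wif1 had a promoter in the table, and the other 5 were not searched.
Wnt5b promoter: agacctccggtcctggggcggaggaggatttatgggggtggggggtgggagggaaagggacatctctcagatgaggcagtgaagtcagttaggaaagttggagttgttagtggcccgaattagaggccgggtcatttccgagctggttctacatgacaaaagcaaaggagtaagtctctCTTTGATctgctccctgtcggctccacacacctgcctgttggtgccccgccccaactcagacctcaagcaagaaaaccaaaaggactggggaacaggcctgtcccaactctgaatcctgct

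Other genes of the pathway were counted in 4 lists, some of which share genes. Lgr5, Rnf43, Znrf3 and Notum are listed as surface partners and as target genes. Lef1 and Tcf7 are listed as nuclear genes and as target genes. Of these, Znrf3 and Tcf7 were tested, and both were neither higher nor lower. Of 24 genes for ligand release and surface partners, 13 were tested, of which 3 were higher in KO (background 8.92%), 5 lower (8.56%) and 5 neither, with a median log2 ratio of -0.50. The authors' deposited table called 3 higher (background 5.56%) and 3 lower (5.34%). Ror2, the receptor kinase through which Wnt5a signals, had 240 (240.0) and 260 (260.1) normalised reads in WT and 16.6 and 23.9 in KO. It fell 12.4-fold, with an adjusted p of 4.03e-10 in the authors' deposited table and 0.0137 by limma. Ryk, another Wnt5a receptor, which was named after its values were seen, had 4008 and 3944 normalised reads in WT and 1996 and 2241 in KO. It did not overlap but was 1.88-fold lower, within the limit, with an adjusted p of 0.0376 by limma and 0.109 in the authors' deposited table.

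Porcn, the enzyme that attaches the lipid to Wnt ligands, had 130 (130.1) and 96.4 normalised reads in WT and 31.3 and 13.9 in KO. It fell 5.01-fold, with an adjusted p of 0.00189 in the authors' deposited table and 0.0582 by limma. Porcn was 8.13-fold lower without the deeper KO library and 3.62-fold lower without the shallower KO library. Frzb, a further Sfrp-type inhibitor, had 156 and 29.1 normalised reads in WT and 37.7 and 5.97 in KO. The genotypes overlapped, and the 4.24-fold lower mean rested on the deeper WT library, without which it was 1.34-fold lower and not called. Leaving out the shallower WT, the deeper KO or the shallower KO library made Frzb 7.15-fold, 15.5-fold or 2.46-fold lower. The Wnt-enhancing ligand Rspo3 rose from 144 and 33.6 to 347 and 273, 3.49-fold, and the R-spondin receptor Lgr6 from 318 and 651 to 1715 and 1514, 3.33-fold. In the authors' deposited table the adjusted p of Rspo3 was 0.0119 and that of Lgr6 7.07e-05, and limma gave 0.138 and 0.0529. The ratio of Rspo3 was 9.21 without the deeper WT and 2.16 without the shallower WT library. For Lgr6 it was 2.48 without the deeper WT and 5.07 without the shallower WT library. Rspo2, another R-spondin, named after its values were seen, was called lower. It had 2291 and 806 normalised reads in WT and 1011 and 253 in KO, 2.45-fold lower. These overlapped, and the call was lost without the deeper WT library (ratio 0.784) and without the shallower KO library (0.653).

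Of 15 planar polarity and non-canonical genes, 11 were tested, of which 2 were higher (background 8.92%), 1 lower (8.56%) and 8 neither, with a median log2 ratio of -0.35. The authors' deposited table called 2 higher (background 5.56%) and 1 lower (5.34%). Daam2, a formin that links Dishevelled to the cytoskeleton, had 91.6 and 40.4 normalised reads in WT and 5050 and 2339 in KO. It rose 56.0-fold (counting interval 47.1 to 67.1), with an adjusted p of 4.60e-04 in the authors' deposited table and 0.0137 by limma. It was 91.5-fold higher without the deeper WT library and 35.5-fold without the deeper KO library. Prickle2, a core planar polarity protein, had 156 and 117 normalised reads in WT and 0.920 and 0 in KO, where 1 read was counted. Its ratio was 0.00337 with a counting interval of 8.51e-05 to 0.0190 (0.00674 without the shallower KO library, and 0 reads remained in KO without the deeper one), with an adjusted p of 4.61e-15 in the authors' deposited table and 0.0137 by limma. Vangl1, a membrane protein of the same system, had 418 and 413 in WT and 1034 and 1008 in KO, a ratio of 2.46 with an adjusted p of 0.0108 in the authors' deposited table and 0.0190 by limma.

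**Figure D4:**
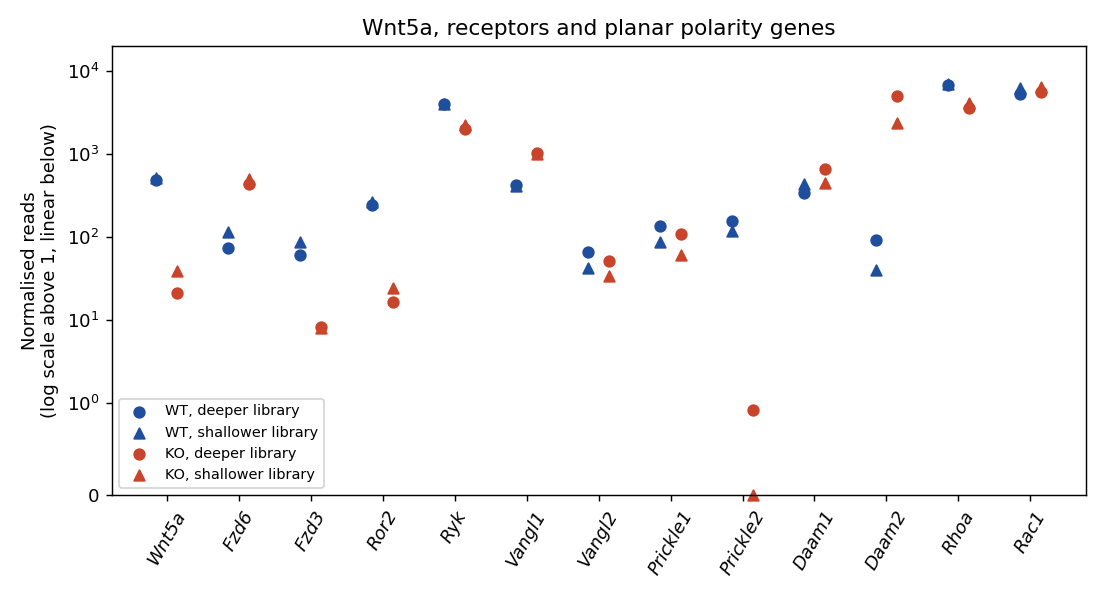
Normalised reads (log scale above 1, linear below) of Wnt5a, receptors and planar polarity genes in the 4 recovered libraries, a selection made after the values were seen. Wnt5a, Fzd3, Ror2, Ryk, Prickle2 and Rhoa are lower and Fzd6, Vangl1, Daam1 and Daam2 are higher in both KO libraries. Of these, Ryk, Rhoa and Daam1 are within the 2-fold limit, and Vangl2, Prickle1 and Rac1 overlap.

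Of 30 cytoplasmic and nuclear genes, 28 were tested, of which 1 was higher (background 8.92%), 2 lower (8.56%) and 25 neither, shares near or under the background, with a median log2 ratio of 0.13. The authors' deposited table called 0 higher (background 5.56%) and 1 lower (5.34%). Tle4, a corepressor that binds TCF/LEF factors, had 229 and 144 normalised reads in WT and 18.4 and 10.9 in KO. It fell 12.7-fold, with an adjusted p of 1.69e-05 in the authors' deposited table and 0.0195 by limma. Apc2, a relative of the tumour suppressor Apc, was called higher at 4.59-fold, from 51.1 and 10.1 to 203 and 77.6, with an adjusted p of 0.457 in the authors' deposited table and 0.167 by limma. The ratio of Apc2 was 13.9 without the deeper WT, 2.75 without the shallower WT and 2.54 without the deeper KO library. Tle2 was called lower at 2.41-fold, with 1183 and 303 normalised reads in WT and 484 and 131 in KO. These overlapped, and the call was lost without the deeper WT library (ratio 1.02) and without the shallower KO library (0.651). Leaving out the shallower WT or the deeper KO library gave 0.260 or 0.177.

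Of 23 widely used target genes, 15 were tested, of which 3 were higher (background 8.92%), 4 lower (8.56%) and 8 neither, with a median log2 ratio of -0.42. The authors' deposited table called 2 higher (background 5.56%) and 4 lower (5.34%). Tnfrsf19, a receptor of the tumour necrosis factor family, had 32.8 and 56.1 normalised reads in WT and 1.84 and 3.98 in KO. It fell 15.3-fold, with an adjusted p of 0.00178 in the authors' deposited table and 0.0392 by limma. Tnfrsf19 was under the read minimum without the shallower WT library. It was 24.1-fold lower without the shallower KO library and 11.2-fold lower without the deeper KO library. Nkd2, a feedback inhibitor that binds Dishevelled, had 195 and 141 in WT and 21.2 and 11.9 in KO, 10.2-fold lower, with an adjusted p of 2.44e-07 in the authors' deposited table and 0.0217 by limma.

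Wisp2 and Sox9 moved the other way among the target genes. Wisp2, a secreted matricellular protein, had 567 and 156 normalised reads in WT and 2039 and 1573 in KO, a ratio of 4.999. Sox9, the transcription factor of cartilage formation, had 379 and 99.8 in WT and 1428 and 806 in KO, a ratio of 4.67. For Wisp2 the authors' deposited table gave an adjusted p of 1.38e-05 and limma 0.0750, and for Sox9 they gave 0.0712 and 0.0995. Without the deeper WT library the ratios were 11.6 and 11.2, and without the shallower one 3.19 and 2.95. Bmp4, a ligand of another pathway, had 3954 and 1843 normalised reads in WT and 584 and 794 in KO, 4.21-fold lower, with an adjusted p of 0.188 in the authors' deposited table and 0.0544 by limma, and was 2.67-fold lower without the deeper WT library.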

How the data were processed

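The authors deposited 1 table of a comparison of both genotypes; TopHat 1.4.0, DESeq 1.10.1 and build mm9 appear in the submitters' processing notes, with no role or order. Counter, strand setting and annotation: not given in the sources used here. The deposited signal per gene is, per the file headers, a mean of reads divided by DESeq size factors. The deposited fold divides the KO mean by the WT mean, and the log2 value the authors give is its logarithm. Raw and adjusted p-values are the authors' own.

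The reads of 2 libraries per genotype were recovered from each mean. Ratios, exact intervals (scipy 1.17.1) and limma 3.58.1 (R 4.3.3) on log2(normalised reads + 1), with Benjamini-Hochberg adjustment, used all 11710 genes with a mean of at least 20. The 2-fold rule and limma were also run on simulated reads with independent variation between libraries. That run does not show how intervals or calls behave where the libraries of a genotype differ as they do here. For a single gene, an exact two-sided permutation test of 2 against 2 libraries cannot go below 0.333, so none was run. The genes and lists were chosen with earlier results of these data known. Of the lists, up to 5 called genes with the largest ratios were named, and Ryk, Rspo2 and Ccnd1 were added after their values were seen. Exon lengths and 3' UTRs are from GENCODE M21 (GRCm38), not the authors' build. Wnt7b, Wnt11 and Axin2 also have opposite-strand overlaps.

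Alternatives were scaling to total reads, minimums of 5 and of none, a 1.5-fold rule, the authors' p, limma with pseudocounts of 0.5 and 5, a depth block and leaving out each library. Ratios within the deeper and within the shallower pair were chosen after seeing the data.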

Additional observations from a re-analysis of the deposited data

How the results depend on the processing

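Fzd6 (higher) and Fzd3 and Wnt5a (lower) were called under every setting run for the counts, and Sfrp2 (lower) under all but the authors' adjusted p. The 4 genes called higher became 1 with the authors' p and 1 with limma at each of the 3 pseudocounts, and ranged from 2 to 7 when 1 library was left out. The 5 called lower became 2 with the authors' p and 3 with limma at each pseudocount, and ranged from 3 to 6 when 1 library was left out. A minimum of 5 reads gave 5 higher and 7 lower, and no minimum 6 and 7. Both added Axin2 and Wnt9a as lower and Wnt7b as higher, and no minimum also added Wnt1 as higher. The 1.5-fold rule gave 6 and 7, adding Fzd4 and Fzd8 as lower and Wnt2b and Wnt4 as higher. The log2 ratio of Wif1 ranged from -4.19 to 1.21 when 1 library was left out, and turned positive without the deeper WT library. With the depth block (a replicate block whose pairing was read from the data), limma called 3 higher and 6 lower. Scaling to total reads moved the median log2 ratio of all tested genes from -0.0054 to 0.06 and gave 5 higher, Wnt2b being added, and 5 lower. For ligand release and surface partners, 5 lower became 3 with the authors' p and as few as 3 without 1 library. For cytoplasmic and nuclear genes, 1 higher became 0 with the authors' p and up to 4 without 1 library, and 2 lower became 1 and ranged from 1 to 4. With the longest transcript as length, 28 of 28 detected genes kept their place per kilobase in WT and 22 of 28 in KO. The cause of these differences was not tested. Depth limits the 12 low genes, and 2 libraries of 1 clone per genotype limit every comparison.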
